A study of Mus musculus with 15 samples.

Results

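The samples were examined for changes of messenger RNA that liver tumours and the thymus of the same mice had in common. Genes were included where at least 3 of the 9 liver and nodule samples and at least 3 of the 6 thymi reached 1 FPKM (a level scaled to transcript length and sequencing depth). This left 9349 of the 13938 genes in the table, out of 10669 that passed on the liver side and 11332 that passed on the thymus side. The included gene nearest to the limit was Kif2c, whose third-highest liver or nodule value was 1.0002 FPKM, and the nearest one left out was Zufsp, at 0.99835 FPKM.

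Model mice were C57BL/6J mice given diethylnitrosamine (DEN), a DNA-alkylating carcinogen, and carbon tetrachloride (CCl4), a liver toxin, by intraperitoneal injection. From model mice 8, 15 and 25 a big and a small nodule of hepatocellular carcinoma (HCC) and the thymus were taken. Normal mice of the same strain received corn oil by the same route and gave 3 livers and 3 thymi. The liver titles name mouse 2 once and mouse 3 for the other livers. The 3 livers may thus not be from 3 different mice, although the tests treat them so. The labels give no age, sex, dose or duration, every tissue was sequenced in bulk, and the nodules were set against whole livers of other mice. Because the agents were injected into the whole animal, exposure to DEN and CCl4 and the presence of a tumour cannot be told apart in the thymus.

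The study asks how HCC affects gene expression in the thymus. Here it was asked which genes moved the same way in both organs. Each organ's change was computed on log2(FPKM + 1), first for nodules, averaged per mouse over both sizes, against livers (3 against 3), then as model thymi against normal thymi (3 against 3). The average of both changes was tested with limma over 12 values, and each organ was also tested alone. Values per thymus are given in the order of mice 8, 15 and 25 or of normal mice 2, 3 and 5, and livers in the order of table columns 2, 3 and 5.

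Normal thymus 3 stood somewhat apart, with a summed FPKM of 257205 against 225669 to 235297 in the other thymi, 4% of it from mitochondrial genes against 5.66% to 6.46%, and correlations of 0.968 to 0.973 with the other normal thymi. In bulk tissue a lower share of one cell type and less RNA per cell cannot be told apart. The samples carried the transcripts of their organs: the summed FPKM of the 20 thymocyte markers was 4432 to 4883 in model thymi and 4652 to 4924 in normal thymi, against 200.4 to 342.5 in nodules and 140.5 to 166.2 in livers.

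Over all 9349 genes the changes in the organs were only loosely alike. By sign, 3494 genes were higher in both organs, 1902 were lower in both and 3953 went opposite ways (42.3%). Pearson's r between the changes was 0.195 across genes, which are not independent replicates. The median gene was 0.13 higher in nodules and 0.03 higher in model thymi on the log2 scale, with an average of 0.08. The average test called 2015 genes higher (21.6% of genes tested) and 788 lower (8.43%) at a Benjamini-Hochberg adjusted p under 0.05. That is 71.9% upward calls, a split that moved with the scaling. Upward calls made up 84.1% with columns rescaled to the same sum, 46.3% with median-of-ratios scaling and 52.7% with quantile normalization, which set the median nodule change of all genes to 0.25, -0.03 and -0.04.

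The average is not by itself a shared change, because a large change in the nodules can carry it. Of the 2803 genes called, 2207 had the same sign in both organs, 1605 of them higher and 602 lower (17.2% and 6.44% of genes tested), and 596 had opposite signs (6.38%). In 2020 of the 2803, model and normal thymi overlapped. Nodules alone gave 2480 higher and 1051 lower genes (26.5% and 11.2%), whereas thymi alone gave 0 calls in limma after adjustment, with 567 genes higher and 343 lower at an unadjusted p under 0.05 (6.06% and 3.67%). The smallest adjusted p in thymi alone was 0.0762, for Fscn1. That count of 0 depended on single libraries: it was 7 without normal thymus 2 and 3 without normal thymus 5, and 1 with a spread shared by both organs, while without model thymus 15 it was 0 with a smallest adjusted p of 0.798. The test that required both organs to pass on their own therefore called 0 genes in either direction, and its count at an unadjusted p under 0.05 in each organ was 307 genes higher in both (3.28%), 86 lower in both (0.92%) and 127 opposite (1.36%). In 400 genes every nodule and every model thymus lay above every sample of its control group (4.28%), in 92 all lay below (0.984%), and in 218 the organs separated in opposite directions (2.33%). No gene in these data is thus shown to change in both organs by its own test, and the groups and genes below rest on the average test with the values of each organ beside it.

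**Figure D1:**
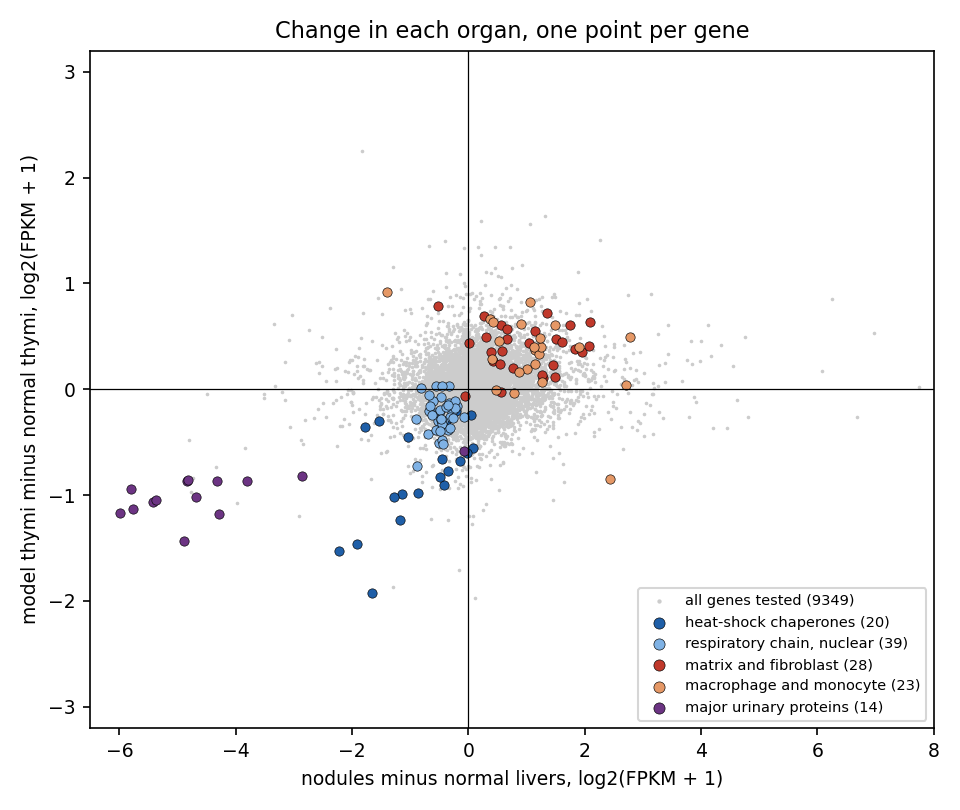
Change of each of the 9349 genes in nodules (horizontal, nodules minus livers) and in thymi (vertical, model minus normal), both on the log2(FPKM + 1) scale, with 5 gene lists coloured. The 20 heat-shock chaperones run into the lower left, matrix and macrophage genes lie mostly in the upper right, and the major urinary proteins lie far to the left at a level that is under 5% of the liver level in thymi.

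Of 42 gene lists, the heat-shock chaperones had the most members lower at an unadjusted p under 0.05 in each organ. Chaperones bind unfolded proteins and help them to fold. Hsp70 proteins work with Hsp40 partners that deliver clients, Hsp90 takes clients on with a set of co-chaperones, and chaperonins fold proteins inside mitochondria. Many of these genes are induced together by the transcription factor HSF1, which binds heat shock elements, repeats of the unit GAA in alternating orientation, when unfolded proteins accumulate or temperature rises.

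Of the 20 listed genes, all of which passed the filter, 16 fell by the average test, each with the same sign in both organs, and 0 rose. Against the background of 8.43%, that was 80% of the list. Lower values in both organs were found for 18 of the 20 (background 20.3%). An unadjusted p under 0.05 in each organ was reached by 13 (background 0.92%), and 8 did not overlap in either organ (background 0.984%). Model thymi lay below normal thymi without overlap for 9 (background 6.96%), all 9 of them among the 16 (background 1.74%). The list's median change was -0.68 in nodules, -0.73 in thymi and -0.70 on average. The sum of the 20 genes was 1119 to 1578 FPKM in nodules and 1878 to 2354 FPKM in livers, and it was 1846, 1172 and 2012 FPKM in model thymi and 3023, 3624 and 2011 FPKM in normal thymi. Nodules and livers did not overlap in that sum, while thymi overlapped by normal thymus 5, which lay 1 FPKM below model thymus 25.

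The sequences around the start sites of 4 members are shown because the group shares a known regulator and because they differ in how complete its element is. They are RefSeq promoter windows of 300 bases on GRCm38.p6, 250 bases before the start site to 50 after it, written 5′ to 3′ in the direction of transcription. Capitals mark matches to GAANNTTCNNGAA or TTCNNGAANNTTC (3 units, searched on both strands, with overlapping matches allowed), and in Fkbp4, which held no such match, the only match of 8 letters to GAANNTTC or TTCNNGAA (2 units).
Chordc1, chr9:18292017-18292316 (plus strand): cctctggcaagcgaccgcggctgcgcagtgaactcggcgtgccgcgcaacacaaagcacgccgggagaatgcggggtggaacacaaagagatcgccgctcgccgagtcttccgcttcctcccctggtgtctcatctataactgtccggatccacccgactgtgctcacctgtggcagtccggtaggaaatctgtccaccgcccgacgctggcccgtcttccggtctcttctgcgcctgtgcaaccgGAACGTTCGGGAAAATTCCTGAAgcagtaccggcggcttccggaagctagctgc
Hspe1, chr1:55087898-55088197 (plus strand): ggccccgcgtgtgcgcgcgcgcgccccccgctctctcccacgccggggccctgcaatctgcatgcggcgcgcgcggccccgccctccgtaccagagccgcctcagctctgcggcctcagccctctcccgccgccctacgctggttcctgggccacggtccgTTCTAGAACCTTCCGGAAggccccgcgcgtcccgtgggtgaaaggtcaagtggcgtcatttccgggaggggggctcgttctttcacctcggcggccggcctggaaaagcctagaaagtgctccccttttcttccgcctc
Hsph1, chr5:149636287-149636586 (minus strand): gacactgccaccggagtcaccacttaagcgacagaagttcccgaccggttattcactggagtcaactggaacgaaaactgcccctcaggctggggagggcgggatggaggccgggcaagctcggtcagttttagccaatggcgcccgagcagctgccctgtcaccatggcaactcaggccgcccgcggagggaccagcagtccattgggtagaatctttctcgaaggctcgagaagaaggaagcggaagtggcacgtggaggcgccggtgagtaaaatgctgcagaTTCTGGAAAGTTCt
Fkbp4, chr6:128438607-128438906 (minus strand): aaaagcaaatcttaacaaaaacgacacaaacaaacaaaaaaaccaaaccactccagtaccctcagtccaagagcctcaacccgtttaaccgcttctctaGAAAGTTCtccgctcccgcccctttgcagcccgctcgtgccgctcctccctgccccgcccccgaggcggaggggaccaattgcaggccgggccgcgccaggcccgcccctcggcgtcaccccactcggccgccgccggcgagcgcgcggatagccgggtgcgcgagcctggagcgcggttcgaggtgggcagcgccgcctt
In Chordc1 3 overlapping matches ran from base -4 to 19 around the start site, in Hspe1 2 overlapping matches from -89 to -72, and in Hsph1 1 match from 37 to 49. The pair of units in Fkbp4 lay from -151 to -144. Hspe1 and Hspd1 are transcribed away from each other, and the Hspd1 window also holds 2 matches. A 3-unit match was found for 4 of the 14 listed genes that had a window (28.6%: Chordc1, Hspd1, Hspe1 and Hsph1) and for 179 of 27025 symbols in the table (0.662%), and a 2-unit match for 10 of the 14 (71.4%) and for 17% of all symbols. A match describes these letters only. Hsp90aa1, Hsp90ab1, Hspa8, Hspa9, Cryab and St13 had no window in the table.

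Hsp90aa1 and several Hsp90 co-chaperones were lower in both organs. Hsp90aa1, Fkbp4, Chordc1, Stip1 and Cacybp were among the 12 falls picked by a rule. It required a call on average, an unadjusted p under 0.05 in each organ and no overlap in either organ. That these genes separate and pass these limits below is therefore a condition of the choice and not a result. Hsp90aa1, the inducible Hsp90 (chr12:110690605-110702728, minus strand, mm10), had 37.2 to 83.3 FPKM in nodules with a median of 68.45, against 124, 220 and 106 FPKM in livers. It had 208, 77.5 and 246 FPKM in model thymi, against 354, 582 and 257 FPKM in normal thymi. Every nodule lay below every liver, and every model thymus below every normal one, though model thymus 25 and normal thymus 5 were close. The change was -1.18 ± 0.31 in nodules (SE, adjusted p = 0.0173) and -1.24 ± 0.46 in thymi (SE, unadjusted p = 0.0267), and the average of -1.21 ± 0.31 passed at an adjusted p of 0.0105.

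Fkbp4, an Hsp90 co-chaperone of steroid receptors (chr6:128429735-128438677, minus strand), had 29.2 to 56.9 FPKM in nodules, against 104, 97.2 and 121 FPKM in livers. Thymi had 101, 48.2 and 94.0 FPKM in model mice, against 162, 210 and 114 FPKM in normal mice. Its average change was -1.15 ± 0.20 (SE, adjusted p = 0.00114), and the groups did not overlap in either organ. Chordc1, a co-chaperone that binds Hsp90 (chr9:18292125-18317442, plus strand), had 5.96 to 11.4 FPKM in nodules against 17.2, 23.8 and 13.3 FPKM in livers, and 27.8, 17.99 and 29.65 FPKM in model thymi against 57.3, 66.7 and 31.55 FPKM in normal thymi. Its average change was -0.92 ± 0.21 (adjusted p = 0.00552), again without overlap. Stip1, which links Hsp70 to Hsp90 and was not on the list, averaged -0.81 ± 0.20 (adjusted p = 0.00854), and Ahsa1, which stimulates the ATPase of Hsp90, averaged -0.66 ± 0.17 (adjusted p = 0.00984). Both were separated in both organs. Cacybp, which encodes calcyclin-binding protein, was also outside the list and averaged -0.84 ± 0.20 (adjusted p = 0.00663). The constitutive Hsp90ab1 averaged -0.56 ± 0.15 (adjusted p = 0.0145), a call that ended under quantile normalization (adjusted p = 0.114).

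Inducible members of the Hsp70 machinery had larger changes and a wider spread. Hspa1b, a heat-inducible Hsp70, had 2.32 to 15.85 FPKM in nodules, against 53.4, 76.6 and 11.03 FPKM in livers. It had 11.8, 6.32 and 15.87 FPKM in model thymi, against 45.6, 60.7 and 12.3 FPKM in normal thymi. The groups overlapped in both organs because liver 5 and normal thymus 5 were as low as the highest samples of model mice. The average change was -1.88 ± 0.52 (adjusted p = 0.0164) and that of its near-identical neighbour Hspa1a was -1.69 ± 0.48 (adjusted p = 0.0188). Reads could have been split between those genes, so their separate values are uncertain. With the organs averaged into 1 value per mouse (the replicate block by mouse means, in which livers were joined to thymi by column number although the titles do not establish that pairing), their adjusted p-values were 0.0567 for Hspa1b and 0.0589 for Hspa1a.

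Hsph1, an Hsp110 that exchanges nucleotide on Hsp70, had 3.18 to 18.7 FPKM in nodules against 38.6, 55.3 and 25.6 FPKM in livers, and 34.8, 5.04 and 40.3 FPKM in model thymi against 106, 116 and 38.2 FPKM in normal thymi. Its average change was -1.80 ± 0.49 (adjusted p = 0.0161, and 0.0537 with mouse means). Dnaja1, an Hsp40, averaged -1.06 ± 0.22 (adjusted p = 0.00361), and Dnajb1, another Hsp40, averaged -0.74 ± 0.17 (adjusted p = 0.0051) without overlap in either organ. Hspa4 fell by 0.34 ± 0.08 on average (adjusted p = 0.00876), also without overlap. St13, a cofactor of Hsp70, averaged -0.41 ± 0.14 (adjusted p = 0.0402), but its nodule change was -0.14 and 15 alternative settings, mouse means among them (adjusted p = 0.0641), ended the call. Bag3, an Hsp70 cofactor of protein clearance, averaged -0.92 ± 0.19 (adjusted p = 0.00379) with -1.54 in nodules and -0.30 in thymi, and it was the 1 list member whose change differed in size between the organs (adjusted p = 0.0398).

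Mitochondrial chaperonins were lower in both organs by smaller steps. Hspd1, the Hsp60 chaperonin (chr1:55077835-55088243, minus strand), had 158 to 226 FPKM in nodules against 264.5, 285.5 and 283 FPKM in livers, and 166, 82.9 and 171 FPKM in model thymi against 262, 294 and 173 FPKM in normal thymi. Its average was -0.66 ± 0.18 (adjusted p = 0.0143), with no overlap in either organ, and quantile normalization gave an adjusted p of 0.0673. Its partner Hspe1 averaged -0.56 ± 0.18 (adjusted p = 0.0298), with thymi overlapping, and its call ended in 8 of 25 alternative settings, among them quantile normalization (adjusted p = 0.0641) and the omission of model thymus 15 (adjusted p = 0.0755), liver 3 or liver 5. The small heat shock protein Hspb1 averaged -1.07 ± 0.24 (adjusted p = 0.00606), with -1.79 in nodules and -0.36 in thymi. Not called were Hspa8, the constitutive Hsp70, with -0.24 ± 0.16 on average (adjusted p = 0.29), Hspa9 with -0.21 ± 0.09 (adjusted p = 0.109), Hspa4l with -0.31 ± 0.14 (adjusted p = 0.123) and Cryab with -0.10 ± 0.17 (adjusted p = 0.681).

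**Figure D2:**
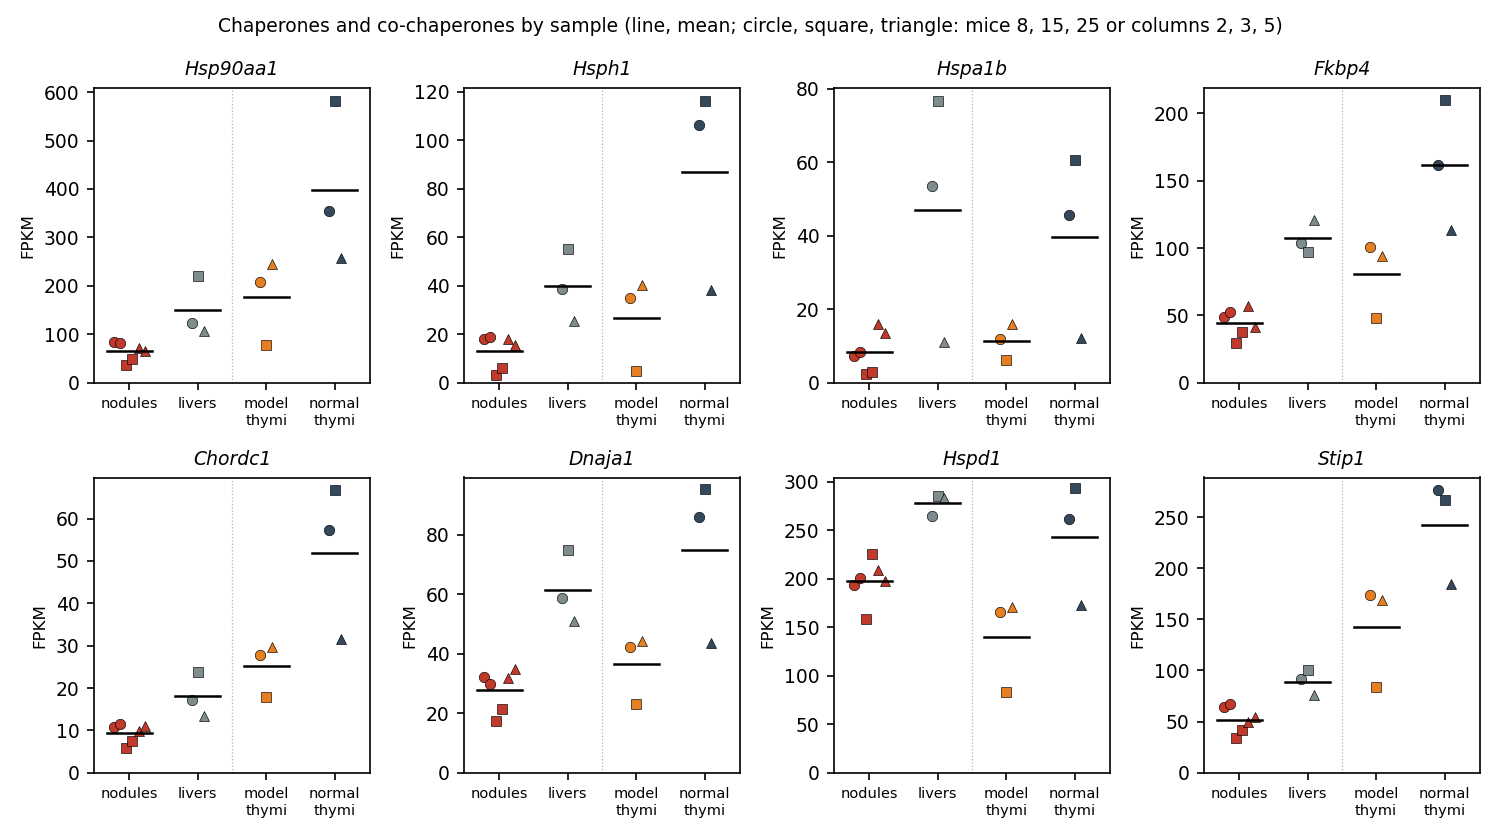
FPKM of 8 chaperones and co-chaperones in every sample, with nodules left of livers and model thymi left of normal thymi, the line marking the mean of the samples. In model mouse 15 (squares) both nodules and the thymus were the lowest of their groups in 7 of the 8 genes, the exception being the small nodule for Hspd1, as with Hsp90aa1 at 37.2 FPKM in the lowest nodule and 77.5 FPKM in the thymus.

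The size of the chaperone change rested in part on a few animals. The lowest summed level among nodules, 1119 FPKM, and the lowest among model thymi, 1172 FPKM, were both from mouse 15, and the highest among livers and among normal thymi were both from columns numbered 3. Whether liver column 3 came from the mouse of normal thymus 3 cannot be told from the titles. With 1 replicate left out of 1 organ at a time, 14 to 17 members were called lower, the 17 without normal thymus 5 including Hspa4l, which was not called otherwise in these omissions. Without mouse 15 in both organs 11 of 20 were called, with medians of -0.57 in nodules and -0.51 in thymi. Without liver and thymus columns 3 together 8 of 20 were called, with medians of -0.57 in both organs, and Hsp90aa1, Hsph1, Hspa1b, Hspd1 and Hsp90ab1 were among those no longer called (Hsp90aa1 adjusted p = 0.054). Fkbp4, Chordc1, Dnaja1, Dnajb1, Bag3, Hspb1, Ahsa1 and Hspa4 passed in every setting run. Between scalings the count of members lower ran from 12 with quantile normalization to 18 with median-of-ratios scaling.

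The genes lower in both organs named next met a rule made after the tests were seen. It required a call on average, an unadjusted p under 0.05 and no overlap in each organ, and the level conditions given with the processing. Of 38 such genes, the 12 with the largest smaller change held Hsp90aa1, Fkbp4 and Chordc1 from the chaperone list. They also held Stip1 and Cacybp, which were not on that list, and 7 others. Thrsp and Car3 changed by more than some of the 12 but failed the level condition. Il1b, the inflammatory cytokine interleukin-1 beta (chr2:129364570-129371139, minus strand), had 0.571 to 2.15 FPKM in nodules with a median of 1.66, against 2.24, 7.79 and 6.59 FPKM in livers. It had 1.61, 0.633 and 2.02 FPKM in model thymi, against 4.0, 17.97 and 5.6 FPKM in normal thymi. The average change was -1.58 ± 0.33 (adjusted p = 0.00379), and the rule required that the groups not overlap in either organ. Normal thymus 3 held the highest value, and without it the average was -1.29.

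Slc35e3, a member of a solute carrier family (chr10:117733679-117746365, minus strand), had 2.07 to 3.49 FPKM in nodules against 7.12, 5.94 and 5.75 FPKM in livers. It had 4.48, 6.55 and 3.74 FPKM in model thymi against 9.41, 8.37 and 7.32 FPKM in normal thymi, with an average change of -0.79 ± 0.12 (adjusted p = 0.000374). Ccdc117 had 4.42 to 7.22 FPKM in nodules against 14.35, 18.4 and 9.37 FPKM in livers, and 16.5, 18.01 and 16.3 FPKM in model thymi against 35.7, 30.4 and 21.8 FPKM in normal thymi, with an average of -0.89 ± 0.16 (adjusted p = 0.00143). Complete separation of model and normal samples in both organs was a condition for picking these genes, too. Ptms, which encodes the nuclear protein parathymosin, averaged -1.05 ± 0.16 with -1.51 in nodules and -0.60 in thymi. Phlda1, which growth factor signals induce, averaged -0.65 ± 0.15. Pcbd2, a pterin dehydratase that also acts as a cofactor of the hepatocyte factor HNF1, averaged -0.64 ± 0.12. Chchd2, a protein of the mitochondrial intermembrane space, averaged -0.52 ± 0.12. All 12 kept their call with 1 replicate left out of 1 organ at a time, while Hsp90aa1 lost it without liver and thymus columns 3 together (adjusted p = 0.054).

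Nuclear genes of the respiratory chain, which encode most subunits of the complexes that make ATP in mitochondria, leaned the same way by less. Of 39 tested, 24 fell by the average test (background 8.43%), 22 of them with the same sign in both organs (background 6.44%), and 0 rose. The median change was -0.46 in nodules and -0.22 in thymi, and 35 of 39 were lower in both organs (background 20.3%). An unadjusted p under 0.05 in each was reached by 3 (Cox4i1, Cox5a and Atp5e, background 0.92%). No overlap in either was found for 2 (Cox5a and Atp5b, background 0.984%). Cox5a, a subunit of complex IV, had 26.05 to 39.25 FPKM in nodules against 42.9, 49.7 and 56.0 FPKM in livers, and 31.3, 32.3 and 29.6 FPKM in model thymi against 35.4, 54.7 and 38.5 FPKM in normal thymi. Its average change was -0.56 ± 0.11 (adjusted p = 0.00228). The thymus median of this list was -0.08 without normal thymus 3, while without normal thymus 2 it was -0.36. The count of 24 was 37 with median-of-ratios scaling, 17 with quantile normalization, 32 without normal thymus 2, 15 without liver 5, 12 without model thymus 25 and 10 without mouse 15 in both organs.

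The 13 genes encoded by mitochondrial DNA did not follow. Their median was -0.74 in nodules and 0.27 in thymi (0.11 without normal thymus 3), and 10 of 13 went opposite ways (background 42.3%). The average test called 3 lower (background 8.43%) and 0 higher. Cytosolic ribosomal protein genes, of which 39 of 40 were higher in nodules and all 40 lower in model thymi, had medians of 0.44 and -0.24. The average test called 2 of them higher (background 21.6%). Without normal thymus 3 the thymus median of the ribosomal genes was -0.06.

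**Figure D3:**
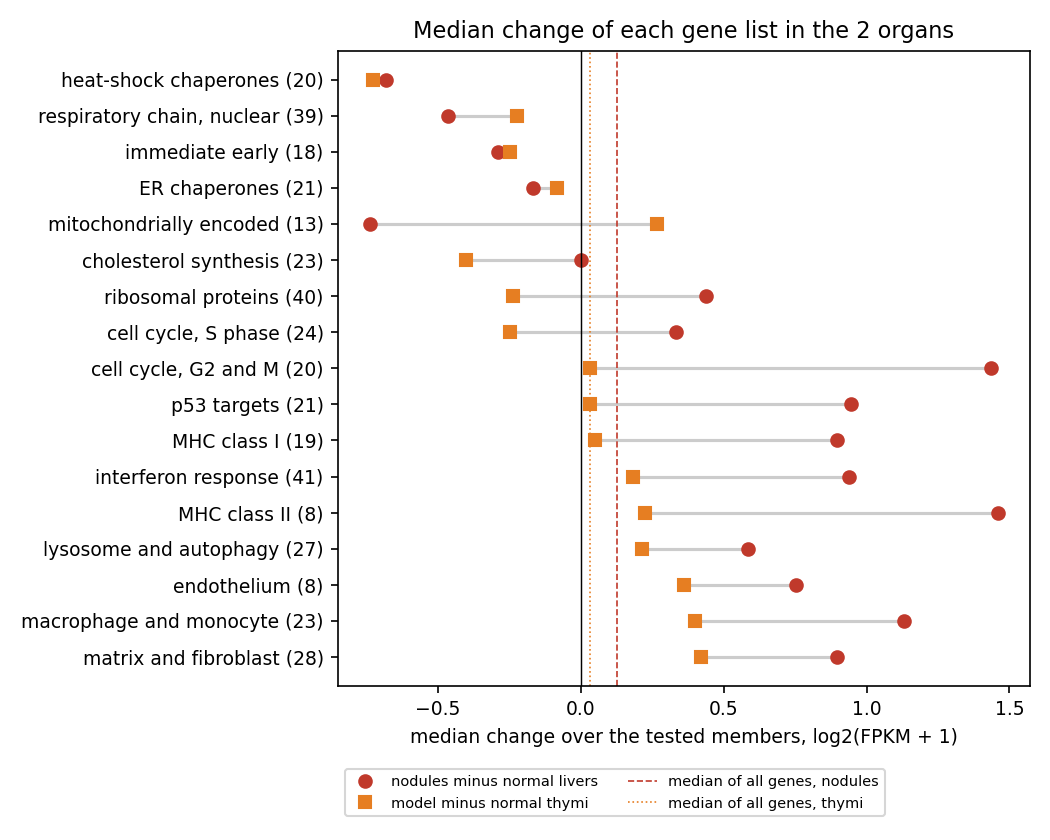
Median change of 17 gene lists in nodules against livers (circles) and in model against normal thymi (squares), in log2(FPKM + 1), with the number of tested members in brackets and dashed lines at the median of all genes, 0.13 in nodules and 0.03 in thymi. Heat-shock chaperones lie at nearly the same value in both organs (-0.68 and -0.73), whereas G2 and M phase genes lie at 1.44 in nodules and at the median of all genes in thymi.

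Matrix, endothelial and macrophage lists held many genes higher in both organs. Matrix and fibroblast genes, which encode collagens, their crosslinkers and the receptors of mesenchymal cells, rose in 20 of 28 tested members against a background of 21.6%, all 20 with the same sign in both organs, and 0 fell. Their medians were 0.90 in nodules and 0.42 in thymi, and 25 of 28 were higher in both organs (background 37.4%). An unadjusted p under 0.05 in each was reached by 9 (background 3.28%), and 6 did not overlap in either (background 4.28%). The summed level of the whole list of 39 genes was 489 to 606 FPKM in nodules and 219 to 238 FPKM in livers, and 184, 280 and 256 FPKM in model thymi and 163, 211 and 156 FPKM in normal thymi. Normal thymus 3 lay above model thymus 8 in that sum.

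Timp3, an inhibitor of matrix metalloproteinases, had 8.68 to 11.96 FPKM in nodules against 3.44, 5.17 and 4.01 FPKM in livers, and 4.53, 5.74 and 7.40 FPKM in model thymi against 4.41, 3.18 and 3.42 FPKM in normal thymi. Its average change was 0.85 ± 0.12 (adjusted p = 0.000297). Col6a2, a chain of collagen VI, averaged 0.62 ± 0.10 (adjusted p = 0.000984), and Postn, the matrix protein periostin, averaged 0.57 ± 0.11 (adjusted p = 0.00182). Pdgfrb, the receptor of platelet-derived growth factor on pericytes and fibroblasts, averaged 0.47 ± 0.10 (adjusted p = 0.00301). None of these 4 genes overlapped between model and normal samples in either organ. They were picked as the called members with the smallest larger p of both organs. Such a pick favours separation, which is therefore not a result about the list.

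Endothelial genes rose in 7 of 8 tested members (background 21.6%), all with the same sign in both organs (background 17.2%), with medians of 0.75 and 0.36. Eng, a co-receptor of the TGF-beta family, had 16.7 to 22.7 FPKM in nodules against 12.1, 11.4 and 14.0 FPKM in livers, and 3.64, 4.35 and 5.52 FPKM in model thymi against 2.76, 2.75 and 3.13 FPKM in normal thymi. Its average was 0.54 ± 0.10 (adjusted p = 0.00145). Cdh5, the cadherin of endothelial junctions, averaged 0.82 ± 0.11 and Pecam1, another junction protein, 0.74 ± 0.10, both without overlap and both with a larger change in nodules (adjusted p of the difference 0.0265 and 0.0235). Eng, Cdh5 and Pecam1 were picked from the called members in the same way, which favours separation. The summed level of the 22 listed endothelial genes was 186 to 222 FPKM in nodules and 112 to 146 FPKM in livers, and 48.65 to 63.6 FPKM in model thymi and 40.1 to 41.8 FPKM in normal thymi, without overlap in either organ.

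Macrophage and monocyte genes rose in 20 of 23 tested members (background 21.6%), 19 with the same sign (background 17.2%), with medians of 1.13 in nodules and 0.40 in thymi. The thymus median was 0.24 without model thymus 15 and 0.26 without normal thymus 5. Adgre1, which encodes the macrophage surface protein F4/80 (chr17:57358686-57483529, plus strand), had 4.96 to 7.99 FPKM in nodules against 3.24, 4.06 and 2.93 FPKM in livers. It had 7.72, 9.67 and 7.02 FPKM in model thymi against 4.52, 4.73 and 5.50 FPKM in normal thymi, and its average change was 0.76 ± 0.10 (adjusted p = 0.000212). Cd68, a lysosomal protein of macrophages, had 29.8, 37.3 and 29.9 FPKM in model thymi against 20.8, 20.95 and 20.7 FPKM in normal thymi, and 6.89 to 22.2 FPKM in nodules against 4.76, 4.61 and 2.26 FPKM in livers, with an average of 1.04 ± 0.15 (adjusted p = 0.000391). Mpeg1, a pore-forming protein of macrophages, averaged 1.63 ± 0.14, with 2.77 in nodules and 0.49 in thymi (adjusted p of the difference 0.000119). Mrc1, the mannose receptor, averaged 0.53 ± 0.11 with nodules overlapping livers.

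The summed level of the 30 macrophage and monocyte genes did not separate in thymi: it was 698, 1005 and 737 FPKM in model thymi and 553, 852 and 548 FPKM in normal thymi, against 839 to 1248 FPKM in nodules and 384 to 475 FPKM in livers. Model thymus 15 and normal thymus 3 were each the highest of their group. Without mouse 15 in both organs 15 of the 23 genes were called. All 3 neutrophil genes tested were higher in nodules and lower in model thymi, with medians of 1.63 and -0.70, and the summed neutrophil level was 26.75 to 36.9 FPKM in model thymi and 27.0 to 83.5 FPKM in normal thymi, and B and plasma cell genes were at 137 to 214 FPKM in model thymi and 74.4 to 215 FPKM in normal thymi. The part of cell composition in these rises was not tested.

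**Figure D4:**
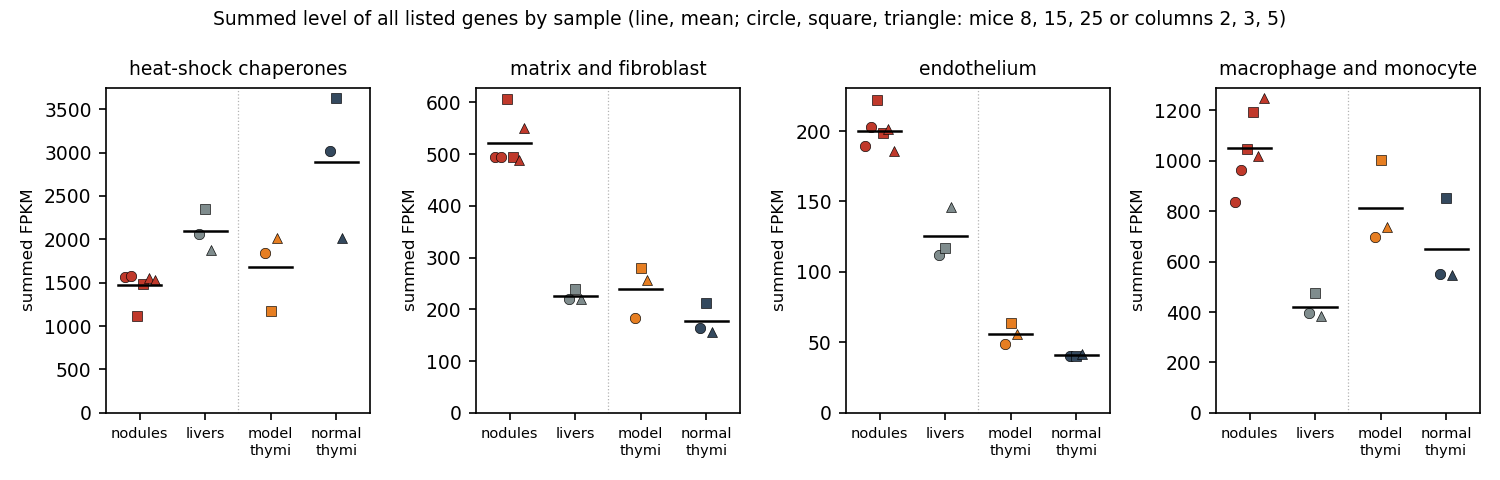
Summed FPKM of all listed genes in every sample for 4 lists, with nodules left of livers and model thymi left of normal thymi, the line marking the mean of the samples. Nodules and livers do not overlap in any of the 4, and in thymi the endothelial sum does not overlap (48.65 to 63.6 FPKM against 40.1 to 41.8 FPKM).

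Of 69 rises that met the same rule as the falls, the 12 with the largest smaller change were Sirpa, Lrp10, Ifi207, Igfbp3, App, Tap1, Trim34a, Ccdc125, AC149090.1, Adgre1, Serpina3g and Pla2g7. Sirpa, an inhibitory receptor of myeloid cells that binds CD47 (chr2:129592835-129632228, plus strand), had 6.18 to 15.3 FPKM in nodules against 2.36, 1.04 and 0.876 FPKM in livers. It had 11.7, 13.3 and 14.2 FPKM in model thymi against 10.99, 1.83 and 3.36 FPKM in normal thymi. Normal thymus 2 thus came within 1 FPKM of the lowest model thymus, and the average change was 1.83 ± 0.28 (adjusted p = 0.000549). Pla2g7, a secreted phospholipase that inactivates platelet-activating factor, averaged 1.14 ± 0.18 (adjusted p = 0.000697).

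Lrp10, a receptor of the LDL receptor family (chr14:54464137-54471497, plus strand), had 5.28 to 18.3 FPKM in nodules against 2.86, 3.66 and 5.12 FPKM in livers, and 26.7, 32.9 and 17.45 FPKM in model thymi against 14.1, 11.7 and 14.7 FPKM in normal thymi. Igfbp3, which binds insulin-like growth factors (chr11:7206086-7213923, minus strand), had 10.49 to 17.7 FPKM in nodules against 5.78, 7.95 and 9.20 FPKM in livers, and 3.82, 9.28 and 3.85 FPKM in model thymi against 1.18, 3.60 and 1.23 FPKM in normal thymi. The average changes were 1.00 ± 0.16 for Lrp10 (adjusted p = 0.000617) and 0.95 ± 0.23 for Igfbp3 (adjusted p = 0.00865). Igfbp3 was highest in model thymus 15 and in normal thymus 3, so that its separation in thymi was narrow. App, the amyloid precursor protein, averaged 1.302 ± 0.12 with 1.90 in nodules and 0.70 in thymi. Ccdc125 averaged 1.33 ± 0.12 with 2.03 and 0.64. AC149090.1 averaged 0.64 ± 0.13, with 0.65 and 0.63.

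Interferon-inducible and antigen-processing genes were among these rises. Ifi207, a member of the interferon-inducible PYHIN family (chr1:173723427-173741747, minus strand), had 3.59 to 8.09 FPKM in nodules against 1.90, 2.53 and 1.78 FPKM in livers, and 4.47, 5.77 and 5.56 FPKM in model thymi against 2.77, 2.79 and 2.32 FPKM in normal thymi. Its average was 1.02 ± 0.10 (adjusted p = 2.23e-05). Tap1, which carries peptides to MHC class I molecules (chr17:34187553-34197225, plus strand), had 3.78 to 7.88 FPKM in nodules against 2.16, 1.69 and 3.44 FPKM in livers, and 22.75, 26.9 and 21.95 FPKM in model thymi against 17.3, 12.95 and 13 FPKM in normal thymi, with an average of 0.92 ± 0.14 (adjusted p = 0.000506). Trim34a, a TRIM protein that interferon induces, averaged 0.80 ± 0.13, and Serpina3g, a protease inhibitor of lymphoid and myeloid cells, averaged 1.12 ± 0.14. All 4 separated completely in both organs, as the rule that picked them required.

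As a list, the interferon response was shared less evenly. The average test called 27 of 41 members higher (background 21.6%) and 0 lower, 23 of them with the same sign (background 17.2%). The medians were 0.94 in nodules and 0.18 in thymi (0.11 without normal thymus 5). An unadjusted p under 0.05 in each organ was reached by 4 members (background 3.28%) and no overlap by 6 (background 4.28%). The summed level of the list overlapped in thymi, at 749, 851.5 and 826 FPKM in model thymi and 771, 934 and 784 FPKM in normal thymi. Gbp7, an interferon-induced GTPase, had 9.45, 12.5 and 11.7 FPKM in model thymi against 8.39, 6.69 and 7.73 FPKM in normal thymi, and averaged 0.63 ± 0.12 (adjusted p = 0.00249). All 8 tested MHC class II genes rose with the same sign in both organs (background 17.2%), with medians of 1.46 and 0.22. Both organs separated for none of them, which is near the share over all genes for a list of 8 (background 4.28%). Cd86, a costimulatory ligand on antigen-presenting cells that was listed with them, had 5.91, 8.38 and 8.09 FPKM in model thymi against 4.47, 5.24 and 3.90 FPKM in normal thymi, while nodules overlapped livers. MHC class I genes rose in 9 of 19 tested members (background 21.6%), 7 with the same sign (background 17.2%), with medians of 0.90 and 0.05.

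Lysosomal genes rose in 17 of 27 members (background 21.6%), 16 with the same sign (background 17.2%), and 1 fell. Their medians were 0.59 in nodules and 0.22 in thymi, the second being 0.135 without model thymus 15. Grn, the lysosomal protein progranulin, had 39.3 to 57.1 FPKM in nodules against 31.3, 29.2 and 30.2 FPKM in livers, and 21.9, 27.15 and 21.1 FPKM in model thymi against 15.8, 17.3 and 12.4 FPKM in normal thymi. Its change was nearly equal in both organs, 0.59 in nodules and 0.60 in thymi, and averaged 0.59 ± 0.10 (adjusted p = 0.00074).

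Fscn1, which bundles actin in mature dendritic cells, held the smallest p of all genes in thymi. It had 9.03, 11.3 and 11.9 FPKM in model thymi against 3.35, 2.47 and 3.12 FPKM in normal thymi, and 2.30 to 4.71 FPKM in nodules against 0.643, 0.651 and 1.46 FPKM in livers. Its change was 1.56 ± 0.15 in thymi and 1.06 ± 0.19 in nodules, with an average of 1.31 ± 0.13 (adjusted p = 1.83e-05). It stood outside the 12 rises because its nodules stayed under 5 FPKM. Of 16 listed dendritic cell genes 6 were tested, 4 rose on average with the same sign (background 17.2%), and 2 had opposite signs. Itgax, the integrin CD11c, was among the 4, with 1.23 in nodules and 0.32 in thymi. The summed level of the list overlapped in thymi, at 169, 159 and 186 FPKM in model thymi and 157, 226 and 177 FPKM in normal thymi.

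**Figure D5:**
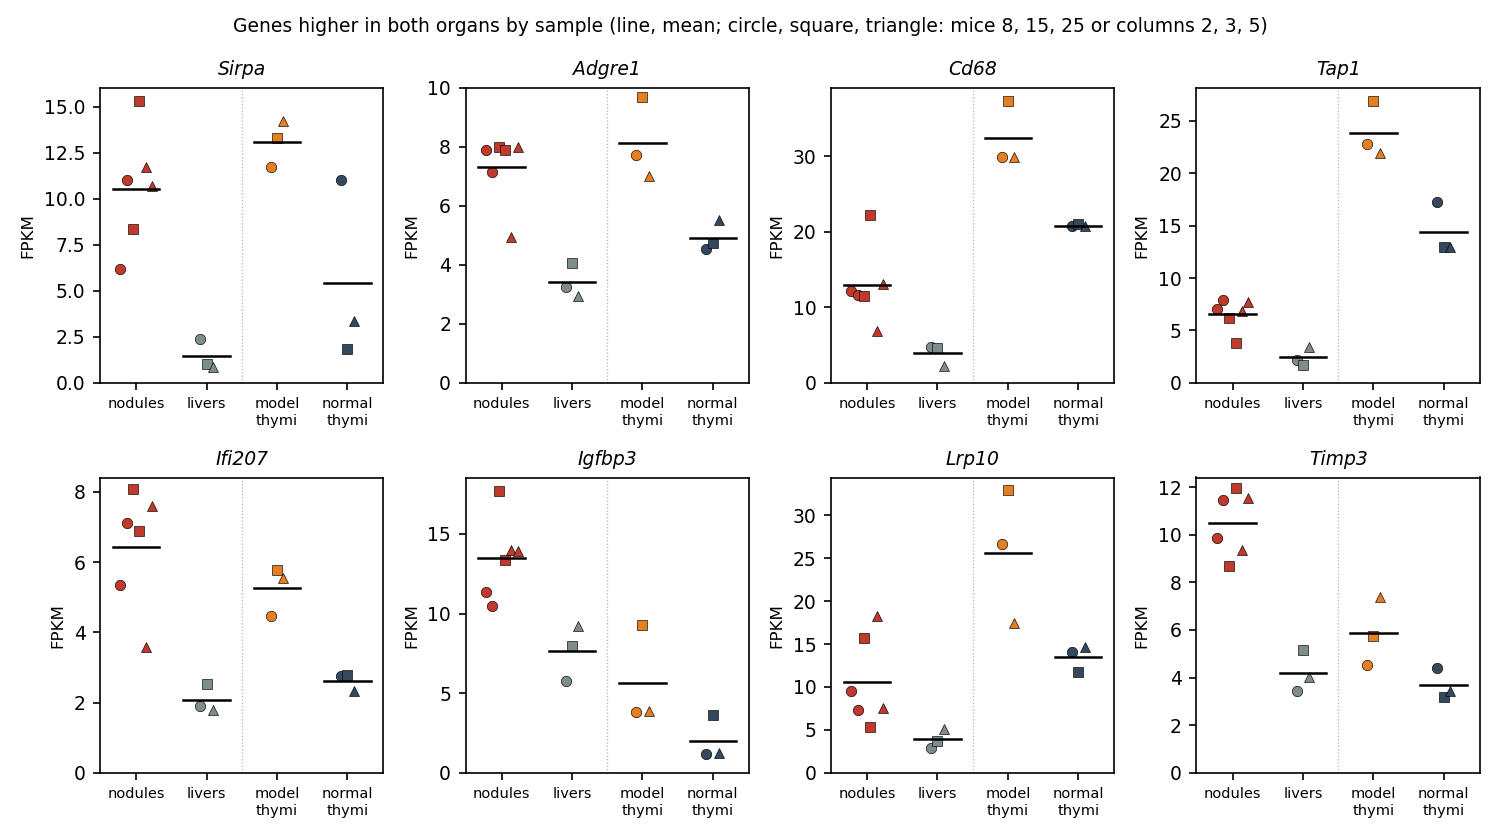
FPKM in every sample of 8 genes that rose by the average test and whose groups do not overlap in either organ, with nodules left of livers and model thymi left of normal thymi, the line marking the mean of the samples. For Sirpa normal thymus 2 (circle, 10.99 FPKM) comes close to the model thymi, and for Igfbp3 the thymus of mouse 15 and normal thymus 3 (squares) are the highest of their groups.

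In other lists the average call went with a large change in nodules and a thymus median near that of all genes or from very low levels. All 20 tested genes of the G2 and M phases, of 30 listed, rose on average (background 21.6%), 13 of them with the same sign in both organs (background 17.2%). The medians were 1.44 and 0.03. In both organs 1 gene separated, which is near the share over all genes (background 4.28%). The list summed to 5.17 to 6.02 FPKM in livers and 38.9 to 104 FPKM in nodules. Members could thus pass the filter mainly through the nodules, which in part fixed the count of 20. The p53 target genes rose in 12 of 21 (background 21.6%), with medians of 0.95 and 0.03. Of the 21, 6 were called with the same sign in both organs (background 17.2%). Major urinary proteins, pheromone carriers secreted by hepatocytes, fell in 13 of 14 (background 8.43%) with medians of -4.83 in nodules and -0.98 in thymi. Their summed level was 10.2, 19.5 and 35.6 FPKM in model thymi against 46.4, 164 and 11.45 FPKM in normal thymi, so the groups overlapped, and all 14 were at less than 5% of the liver and nodule level in thymi. Without normal thymus 3 their thymus median was -0.20. Their source in thymi was not tested.

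Among glucocorticoid-response genes 7 of 14 rose (background 21.6%), 5 with the same sign (background 17.2%). The medians were 0.31 in nodules and 0.18 in thymi. With 1 thymus left out, the thymus median ran from -0.05 (without normal thymus 2) to 0.26 (without normal thymus 3), so its sign depended on 1 library. Fkbp5, a standard target of the glucocorticoid receptor, had 93.5, 73.1 and 82.0 FPKM in model thymi against 67.6, 64.4 and 67.8 FPKM in normal thymi, and 21.3 to 36.2 FPKM in nodules against 4.17, 5.15 and 4.52 FPKM in livers. Its change was 2.34 in nodules and 0.30 in thymi, a difference in size that passed (adjusted p = 1.27e-05), with no overlap in either organ. Klf9, another target, averaged 0.55 ± 0.11 with nodules overlapping livers.

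Cholesterol synthesis genes were lower in model thymi in 22 of 23 members, with a median of -0.40, while the nodule median was 0.00. The average test called 3 higher (background 21.6%) and 5 lower (background 8.43%). Acat2, which makes acetoacetyl-CoA, was lower without overlap in both organs and averaged -0.52 ± 0.09 (adjusted p = 0.00133). Immediate early genes, which stimuli induce within minutes, were called lower in 6 of 18 (background 8.43%), all 6 with the same sign in both organs. They were called higher in 4 of 18, 2 of them with the same sign. The count of 4 is near the background of 21.6%. Nr4a1, an orphan nuclear receptor, averaged -1.68 ± 0.39 (adjusted p = 0.00701), with 15.1, 12.7 and 20.3 FPKM in model thymi against 21.7, 28.4 and 19.6 FPKM in normal thymi, which overlapped.

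Entpd4 and Wdfy1, 2 of 4 genes listed because their expression differs between C57BL/6 substrains, were higher in both organs without overlap. Wdfy1 had 7.81 to 13.6 FPKM in nodules against 4.58, 4.71 and 4.92 FPKM in livers, and 3.80, 5.44 and 4.39 FPKM in model thymi against 3.25, 3.15 and 3.77 FPKM in normal thymi. Its average was 0.66 ± 0.10 (adjusted p = 0.000425), and that of Entpd4 was 0.41 ± 0.09 (adjusted p = 0.00378), a call that quantile normalization ended (adjusted p = 0.0779). Nnt and Ide, also on that list, were not called, with averages of 0.02 ± 0.08 and -0.15 ± 0.09. The part of any difference between the mice other than treatment was not tested.

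In several other lists no member was lower or higher in both organs at an unadjusted p under 0.05 in each, which is near the share over all genes for lists of this size (3.28% higher and 0.92% lower). These counts were 0 of 18 for NRF2 targets, 0 of 17 for ATF4 targets, 0 of 21 for endoplasmic reticulum chaperones, 0 of 24 for S phase genes, 0 of 27 for secreted hepatocyte proteins and 0 of 15 for acute phase genes. Of the endoplasmic reticulum chaperones, which fold secreted proteins, the average test called 3 higher and 2 lower (background 21.6% and 8.43%). Their medians were -0.17 in nodules and -0.08 in thymi. Among 15 inflammatory targets of NF-kB, 2 were higher and 1, Il1b, was lower in both organs by that criterion. Erythroid genes were higher in both organs in 6 of 7 members (background 37.4%), with medians of 1.13 and 0.56. The average test called 0 of 7 (background 21.6% higher). An unadjusted p under 0.05 in each organ was reached by 0 (background 3.28%), which is near the share over all genes for 7 members.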

How the data were processed

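The deposited table holds FPKM per gene, made by the authors. HISAT2 2.1.0, StringTie 1.3.3, FastQC 0.11.7, cutadapt and build mm10 are named in the submitters' processing notes, without settings. Read counts are not used here, so the depth behind each FPKM is unknown and no counting interval is given. A column's genes share 1 total, so a large change in abundant liver transcripts moves all others.

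FPKM values were taken to log2(FPKM + 1) for the 15 samples (5 groups of 3), and the big and small nodule of each model mouse were averaged on that scale. limma 3.58.1 in R 4.3.3 (empirical Bayes with a trend, Benjamini-Hochberg adjustment over 9349 genes, two-sided) gave all p-values. The average of the organ changes came from a fit of 12 values, and each organ alone from a fit of 6. The same-direction test took the larger of both organs' p-values. The p-values measure only the spread between these samples. Scripts were tested on simulated data.

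Groups come from the sample titles. The tissue field calls the thymi liver or nodule, and the liver titles name mouse 3 a second time where the table has column 5, so those livers were mapped to their group only. Nodules and thymus of model mice 8, 15 and 25 are from the same animals by title. Their deviations from the group means correlated by 0.0908, 0.106 and 0.0691, and those of liver and thymus columns 2, 3 and 5 by 0.133, -0.0176 and 0.0962.

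Members and lists were chosen with earlier results of these data known. The planned naming rule required calls by the same-direction test and gave none. Genes were then named by a rule made after that was seen: called on average, same sign, unadjusted p under 0.05 and no overlap in each organ, at least 5 FPKM in the higher group of each organ, and a thymus level from 5% to 20 times that in liver and nodules. The 12 rises and 12 falls with the largest smaller change were taken, of 69 and 38 candidates. Up to 4 called members per list were named by the smallest larger p, and all 20 heat-shock members, Atp5b, Nnt and Ide were named after their values were seen. Promoter sequences are from RefSeq (GRCm38.p6). A lysosomal gene that met the rule is not reported here.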

Additional observations from a re-analysis of the deposited data

Results flagged for a closer look

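The genes here changed by different amounts in the organs by limma's test of the organ difference, which is nodule change minus thymus change on the log2 scale. Among the genes that rose in both, the difference was 1.197 for App (adjusted p = 0.00323), 1.396 for Ccdc125 (adjusted p = 0.00123) and 1.019 for Serpina3g (adjusted p = 0.0255), larger in nodules each time.

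Other genes were picked because they separated completely in both organs but in opposite directions, with an unadjusted p under 0.05 in each organ. A large organ difference is therefore a condition of their choice, and its adjusted p below is not a result. Phgdh, the first enzyme of serine synthesis, had 2.63 to 9.57 FPKM in nodules against 0.0384, 0 and 0 FPKM in livers, and 46.1, 41.2 and 47.8 FPKM in model thymi against 56.0, 84.5 and 63.2 FPKM in normal thymi (difference 3.215, adjusted p = 1.44e-06). The size of the Phgdh difference depended on the value added before the logarithm, and was 6.17 with 0.1 in place of 1. Sqle, squalene epoxidase of cholesterol synthesis, was higher in nodules and lower in model thymi (difference 2.106, adjusted p = 0.000192), as were Dynll1, a dynein light chain (1.933, adjusted p = 0.006), and Ywhah, a 14-3-3 protein (1.294, adjusted p = 0.00993).

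Fam107b had 3.62 to 10.47 FPKM in nodules against 22.2, 21.9 and 42.35 FPKM in livers, and 77.1, 76.0 and 71.1 FPKM in model thymi against 69.0, 4.16 and 10.17 FPKM in normal thymi (difference -4.072, adjusted p = 0.00979). Normal thymus 2 lay near the model thymi in this gene. Hpgd, which breaks down prostaglandins (-2.21, adjusted p = 0.000449), Lifr, the receptor of leukaemia inhibitory factor (-2.037, adjusted p = 0.00769), and Ehd3, an endocytic protein (-1.11, adjusted p = 0.00405), were likewise lower in nodules and higher in model thymi.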

How the results depend on the processing

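The same-direction and opposite-direction tests called 0 genes in every setting run. The average test's 2015 higher and 788 lower genes became 749 and 474 with a filter at 5 FPKM, which tests fewer genes, and 1329 and 1539 with median-of-ratios scaling. Quantile normalization gave 1272 lower. The 400 genes above their controls without overlap in both organs became 621 with no filter, 137 at 5 FPKM, 216 and 226 with median-of-ratios and quantile scaling, 693 without liver and thymus columns 3, and 424 to 686 with 1 mouse or control left out, where fewer samples make separation easier. The 92 below became 49 with columns rescaled to the same sum, 273 and 189 with median-of-ratios and quantile scaling, 143 with small nodules alone, 179 without mouse 15, 143 without columns 3 and 103 to 211 with 1 left out. The single samples that moved these counts most were model thymus 8 (686 above, 153 below), normal thymus 2 (635, 211), normal thymus 3 (609 above) and normal thymus 5 (161 below). Leaving out 1 gave 1617 to 2036 higher and 578 to 864 lower genes by the average test.

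Cryab, at -0.10 and not called, was 0.02939 without liver 3, 0.1195 without columns 3 and -0.2493 without liver 5. The cause was not tested. With the mouse as a replicate block in limma (estimated correlation 0.0511) 1909 genes were higher and 723 lower, and with mouse means 1646 and 641; both join control columns by number, a pairing that the titles do not establish. Mouse means left 12 of 20 heat-shock members called. Leaving out mouse 15 and leaving out columns 3 were added after seeing the data. Depth is unknown, and its part in the count of 0 thymus calls was not tested.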

Other observations

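Cfb, a complement factor, and Thrsp and Car3, both abundant in fat and liver, met every naming condition except the level. Cfb was higher in both organs, with changes of 0.55 in nodules and 0.42 in thymi, and its thymus level was 1.17% of that in liver and nodules. Thrsp was lower, by changes of -2.91 in nodules and -1.20 in thymi at 3.48% of the liver and nodule level, and Car3 by -3.98 and -1.07 at 2.66%. Car3 had 7.27, 7.37 and 7.71 FPKM in model thymi against 9.69, 18.8 and 25.5 FPKM in normal thymi, so the groups did not overlap.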
